A study of Rattus norvegicus with 6 samples.

Results

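Matrix metalloproteinases (MMPs) and their tissue inhibitors (TIMPs) were followed in neonatal rat cardiac fibroblasts (NRCFs), through 10 genes: 6 proteases (Mmp2, Mmp3, Mmp9, Mmp10, Mmp13 and Mmp14) and 4 inhibitors (Timp1, Timp2, Timp3 and Timp4). All 10 were among the 21857 gene symbols counted. The genes were selected by symbol with results of these same libraries already known, so their difference between the groups is a description and carries no p-value.

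The RNA-seq set comprised 6 libraries in 2 groups of 3. NRCFs were taken from the hearts of Sprague-Dawley rats no older than 3 days, although the strain label reads Noway, and cells of both groups were primary cultures. The Vector group (genotype label WT) received the empty plasmid, and the group labelled FTO overexpression received a plasmid carrying rat FTO, an enzyme that removes the N6-methyladenosine mark from RNA. Cells were collected 48 h after transfection. The labels do not say whether replicates were separate cultures, so the p-values below measure the spread between these libraries, which may be technical.

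MMPs are zinc-dependent endopeptidases that cut collagens, proteoglycans and other proteins of the extracellular matrix. Most are secreted as inactive proenzymes and are activated when a propeptide is removed, by plasmin, by furin-like convertases or by another MMP. TIMPs block active MMPs by binding the catalytic site, and fibroblasts of the heart make both, so that matrix turnover in a scar depends on their balance. In this tissue Mmp2 and Mmp14 are known as constitutive fibroblast proteases, while Mmp3, Mmp9, Mmp10 and Mmp13 are known as genes induced by inflammatory cytokines through AP-1 (Fos and Jun proteins) and NF-κB.

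Promoter sequences were read first, because the inducible MMP genes are known for a short AP-1 site ahead of a TATA box. The RefSeq promoter table (GRCr8 build) held 7 of the 10 genes and gave none for Mmp2, Mmp9 and Mmp14. The windows that follow are the last 150 bases before the annotated start of the 3 MMP genes in the table, of Timp1, which had the largest difference among the TIMP genes, and of Timp3, which was lower in the libraries labelled FTO. All are written 5′ to 3′ on the gene's strand, and capitals mark matches to AP-1 (TGANTCA), to an AP-1 variant (TGAGTAA) and to the TATA box (TATAAA).

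Mmp3, chr8:12925131-12925280, plus strand: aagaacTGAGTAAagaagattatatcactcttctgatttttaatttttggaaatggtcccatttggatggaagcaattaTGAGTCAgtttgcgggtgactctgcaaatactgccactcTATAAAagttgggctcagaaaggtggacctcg

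Mmp10, chr8:12974557-12974706, plus strand: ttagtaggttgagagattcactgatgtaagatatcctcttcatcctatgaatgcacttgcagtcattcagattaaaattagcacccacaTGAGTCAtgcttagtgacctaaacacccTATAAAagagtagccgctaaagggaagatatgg

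Mmp13, chr8:12782679-12782828, plus strand: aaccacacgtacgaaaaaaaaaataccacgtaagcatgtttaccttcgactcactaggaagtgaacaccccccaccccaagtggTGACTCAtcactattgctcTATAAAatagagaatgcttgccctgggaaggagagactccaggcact

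Timp1, chrX:3771123-3771272, minus strand: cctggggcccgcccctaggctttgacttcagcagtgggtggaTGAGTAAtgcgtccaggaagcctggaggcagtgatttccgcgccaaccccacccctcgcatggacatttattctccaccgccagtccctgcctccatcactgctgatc

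Timp3, chr7:19459559-19459708, minus strand: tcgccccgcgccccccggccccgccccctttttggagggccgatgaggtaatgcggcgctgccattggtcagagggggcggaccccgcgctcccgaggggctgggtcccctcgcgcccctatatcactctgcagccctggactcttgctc

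In the 250 bases before the start, read on both strands, AP-1 began 71 bases before the start of Mmp3, 61 before that of Mmp10 and 66 before that of Mmp13. A TATA match followed at 32, 33 and 47 bases before the start. Mmp10 also held overlapping TATA matches on opposite strands of the same short stretch, at 196 and 198 bases. The same 3 windows were the only ones of the 7 with an AP-1 match or a TATA match. Over the 33469 windows of the table, 6.34% held AP-1, 12.9% held the TATA letters and 1.02% held both. The Timp1 window held the AP-1 variant at 108 bases, found in 2.38% of all windows, and Mmp3 held it as well at 144 bases. AGGAAG, a core bound by Ets factors, was in the windows of Mmp3, Mmp13, Timp1 and Timp4 and in 29.5% of all windows. The Timp1 window lies inside the outer bounds that the annotation gives the gene, so it belongs to a start other than the outermost one. A match is a description of these letters and not of a bound site.

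The libraries held 13178952 to 17857999 counted reads each. Fto itself was at 87.3 to 89.6 CPM (reads scaled to the library total, with TMM factors) in the Vector group and at 90.7 to 93.2 CPM under FTO. Its log2 fold change was 0.06 (SE 0.0468), and edgeR gave an adjusted p-value of 0.24 (quasi-likelihood test). Each library labelled FTO was thus slightly above each Vector library, but the difference did not pass an adjusted p-value of 0.05. The paper reports that qRT-PCR verified transfection of the FTO plasmid in cardiac fibroblasts, and that N6-methyladenosine fell on a dot blot. Its supplement lists an FTO protein measurement after plasmid transfection as well. Whether those assays used the cultures sequenced here is not stated. Groups are therefore called by their label. Fibroblast markers were detected in both groups, 9 of 9, with a summed level of 41342 to 41931 CPM in Vector and 21123 to 22118 CPM in the libraries labelled FTO. The lower sum came mostly from Col1a1 (25792 to 8262 CPM on average) and Col3a1 (10692 to 3335 CPM), and of the 9 markers 5 fell and 4 rose (Dcn, Pdgfra, Thy1 and Postn). Markers listed for other cell types were detected as well. Summed cardiomyocyte markers were at 1509 to 1542 and 2382 to 2475 CPM, macrophage markers at 689 to 710 and 200 to 225 CPM, mural markers at 636 to 661 and 229 to 274 CPM and endothelial markers at 24.5 to 25.0 and 53.4 to 55.9 CPM, in Vector and in the libraries labelled FTO respectively. Within these lists, 6 cardiomyocyte markers rose and Tnnt2 fell, and 4 endothelial markers rose. Of the mural markers 3 fell (Myh11, Notch3 and Cspg4) and 2 rose (Kcnj8, 29.7-fold, and Abcc9, 5.46-fold). Whether these reads came from other cells was not tested, nor was the part of such cells in the results. In bulk RNA fewer cells of a type cannot be told apart from less RNA per cell.

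Of the 10 genes, 9 had enough counts for the fit and Timp4 did not. Of these 9, 8 were higher and 1 was lower in the libraries labelled FTO, and all 9 passed an adjusted p-value of 0.05. Of all 12941 genes tested, 65.9% passed it, 33.2% as higher and 32.8% as lower. No overlap in CPM was seen between the groups for the 9, as for 70.3% of all genes tested. The threshold of the study (1 log2 unit or more, with an unadjusted p-value under 0.05) was met by 6 of the 9 and by 19.6% of all genes tested. As the genes were chosen with these libraries known, nothing is read from these counts. Over the 12941 genes the log2 fold changes had a median of 0.00.

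**Figure D1:**
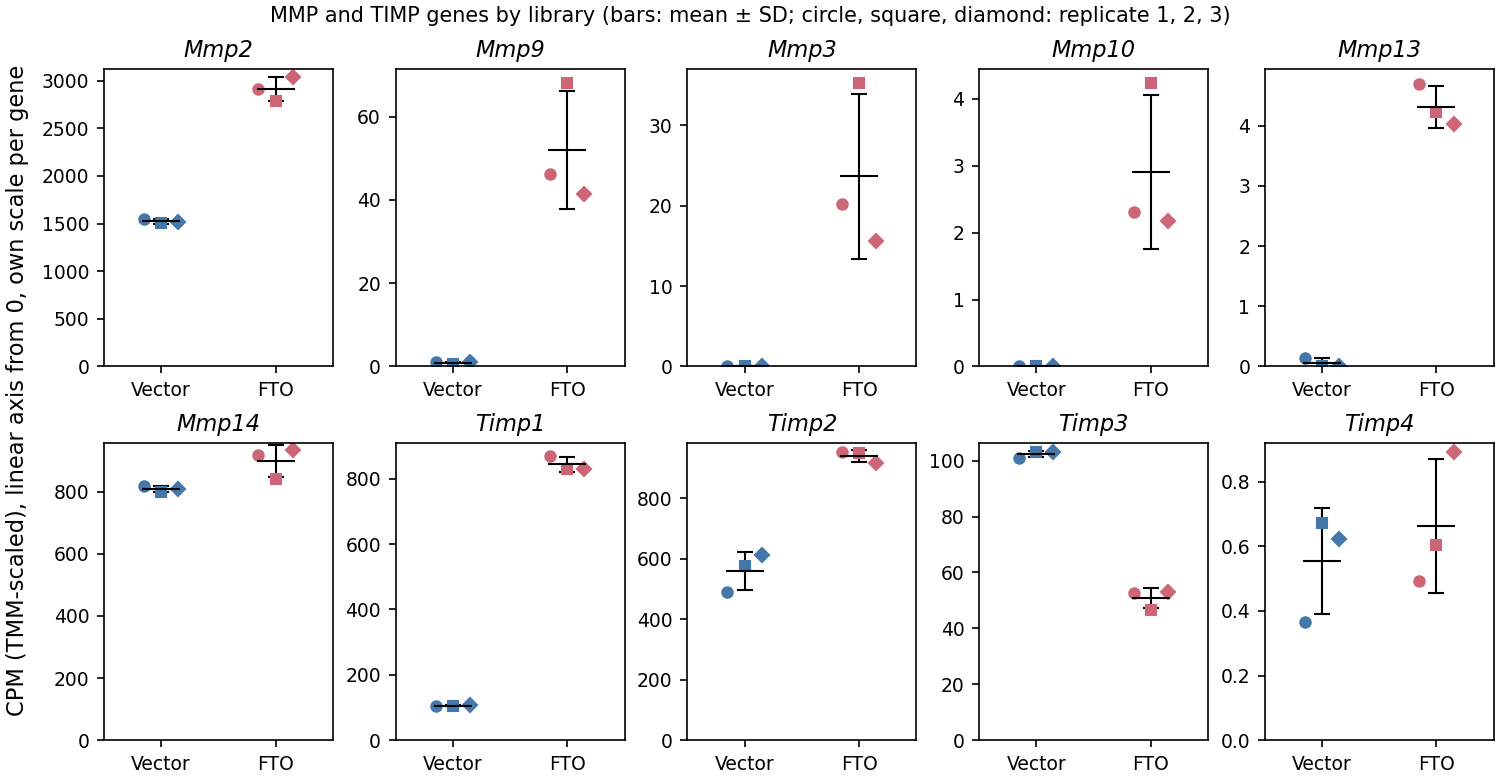
CPM (vertical axis, linear from 0, with its own scale for each gene) of the 10 genes in the 3 Vector and the 3 FTO-labelled libraries, with circle, square and diamond for replicates 1, 2 and 3 and bars for mean ± SD. Mmp3 and Mmp10 sit at 0 in each Vector library, Timp3 is the gene whose points are lower under FTO, and the groups of Timp4 overlap.

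The stromelysins, Mmp3 and Mmp10, are related proteases that cut proteoglycans, laminin and fibronectin and activate other MMPs. Mmp3 had 0 counts in each Vector library and 288, 466 and 280 counts in FTO replicates 1, 2 and 3, or 20.2, 35.2 and 15.6 CPM. It was thus absent from the counts of 1 group and present in every library of the other, at least 108-fold higher against a floor of 3 counts per library. Mmp10 also had 0 counts in each Vector library, and 33, 56 and 39 counts (2.31, 4.23 and 2.18 CPM) in the libraries labelled FTO, at least 13.2-fold higher. How reads shared by these related genes were assigned was not given in the sources used here, so the level of each is uncertain to that extent.

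The collagenase Mmp13, which cleaves the triple helix of fibrillar collagen, had 2, 0 and 0 counts in Vector replicates 1, 2 and 3. In the libraries labelled FTO it had 67, 56 and 72 counts, or 4.70, 4.23 and 4.02 CPM. The ratio of the pooled, library-size-scaled counts was 92.4, with a 95% interval of 25.2 to 768 from counting error alone (exact binomial). That width comes from the 2 Vector counts, both in replicate 1, and without that library the Vector group was at 0.

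The gelatinases, Mmp2 and Mmp9, degrade denatured collagen and the type IV collagen of basement membranes. Mmp9 was at 1.02, 0.671 and 1.11 CPM (14, 10 and 16 counts) in Vector and at 46.2, 68.0 and 41.4 CPM (659, 901 and 741 counts) in the libraries labelled FTO. The log2 fold change was 5.78 (SE 0.250), a 54.9-fold difference. Mmp2 was at 1553, 1507 and 1514 CPM in Vector and at 2910, 2791 and 3044 CPM in the libraries labelled FTO. Its difference was smaller, a log2 fold change of 0.94 (SE 0.0409) or 1.91-fold, with a coefficient of variation between replicates of 1.61% in Vector and 4.35% in the libraries labelled FTO.

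Mmp14 (MT1-MMP), a membrane-anchored collagenase that activates pro-Mmp2 together with Timp2, differed least among the proteases. It was at 819, 797 and 809 CPM in Vector and at 918, 839 and 935 CPM in the libraries labelled FTO, a log2 fold change of 0.15 (SE 0.0442). The lowest FTO-labelled library, at 839 CPM, was close to the highest Vector library, at 819 CPM, and 38.1% of all tested genes had a larger increase.

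The inducible proteases did not vary alike between replicates. FTO replicate 2 was the highest of its group for Mmp3, Mmp9 and Mmp10. Its 95% counting interval for Mmp3, 32.0 to 38.5 CPM (exact Poisson), did not meet that of replicate 1 (17.9 to 22.7 CPM) or of replicate 3 (13.9 to 17.6 CPM). For Mmp9 the interval of replicate 2 was 63.6 to 72.6 CPM, against 42.7 to 49.9 and 38.4 to 44.4 CPM. For Mmp10 the interval of 3.19 to 5.49 CPM overlapped that of replicate 1, 1.59 to 3.25 CPM, but not that of replicate 3, 1.55 to 2.98 CPM. Mmp13 did not share this order, and its coefficient of variation in the libraries labelled FTO was 8.05%, against 43.2% for Mmp3, 39.4% for Mmp10 and 27.4% for Mmp9. These intervals cover counting error only, as the reads carry no molecular identifiers.

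Mmp9 and Mmp8 are abundant in neutrophils, and macrophages also make Mmp9 and Mmp12. Of 7 neutrophil markers, Mpo, Elane and Ltf had 0 counts in all 6 libraries, and the summed level of the list was 0.95 to 1.27 CPM in Vector and 5.92 to 9.13 CPM in the libraries labelled FTO. The 2 markers with enough counts for the fit, Camp and S100a8, both rose in the edgeR test. Camp had 1, 0 and 3 counts in Vector and 73, 89 and 76 under FTO, where it made most of the sum. S100a8 had 3, 7 and 2 counts in Vector and 27, 31 and 29 under FTO. Csf3r, most of the sum in Vector, went the other way. It had 9, 12 and 13 counts in Vector and 2, 1 and 1 under FTO, too few for the fit. Of the 9 macrophage markers in the files, 8 fell and 1 (Adgre1) rose in the edgeR test. Mmp9 thus was higher where the summed macrophage markers were lower, and the share of these cells in its level was not tested.

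Among the inhibitors Timp1, a secreted TIMP that inflammation is known to induce, differed most. It was at 104, 106 and 107 CPM in Vector and at 871, 830 and 830 CPM in the libraries labelled FTO, on 1417 to 14864 counts per library. The log2 fold change of 2.99 (SE 0.0434) is a 7.97-fold difference, and the coefficients of variation were 1.85% and 2.81%. A larger increase was fitted for 2.51% of the tested genes.

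Timp2, which blocks Mmp14 and also serves it as the docking partner of pro-Mmp2, was at 491, 576 and 613 CPM in Vector and at 952, 948 and 915 CPM in the libraries labelled FTO. The log2 fold change was 0.74 (SE 0.0623), or 1.68-fold. Vector replicate 1 was the lowest of its group, and the Vector coefficient of variation of 11.2% was the largest among Timp1, Timp2 and Timp3 in that group.

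Timp3, the TIMP that is bound to the matrix and also inhibits ADAM sheddases, was the only one of the 9 fitted genes with a lower level in the libraries labelled FTO. It was at 101, 103 and 103 CPM in Vector and at 52.7, 46.7 and 53.0 CPM in the libraries labelled FTO, a log2 fold change of -1.01 (SE 0.0572), or 2.01-fold lower. Timp4, the TIMP known for its high level in heart muscle, was close to the limit of detection. It had 5, 10 and 9 counts in Vector and 7, 8 and 16 in the libraries labelled FTO. The groups overlapped, and at this depth the counts were too few for a difference to be tested.

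Timp1, Timp3 and Timp4 overlap the synapsin genes Syn1, Syn3 and Syn2 in RefSeq, and Timp2 overlaps Cep295nl. Whether counting used strand is not given in the sources used here. Syn1 had 10 to 22 counts, Syn3 3 to 11 and Cep295nl 9 to 29 per library, few beside the counts of Timp1, Timp3 and Timp2. Syn2, with 1 to 5 counts per library, was closer to the 5 to 16 counts of Timp4.

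To set protease against inhibitor, the CPM of the 6 MMP genes and of the 4 TIMP genes were summed in each library. These are sums of reads and not of molecules, since transcript lengths were not at hand, so the size of a ratio is not to be read as protease per inhibitor. The MMP sum was 2372, 2305 and 2324 CPM in Vector and 3901, 3742 and 4043 CPM in the libraries labelled FTO, 1.67-fold higher. The TIMP sum was 695.9, 786.3 and 824.4 CPM in Vector and 1876, 1826 and 1798 CPM in the libraries labelled FTO, 2.38-fold higher.

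The ratio of the sums was 3.41, 2.93 and 2.82 in Vector and 2.08, 2.05 and 2.25 in the libraries labelled FTO. The mean was 3.05 ± 0.313 against 2.13 ± 0.107 (SD, 3 libraries each). The ratio thus shifted toward inhibitor, and the groups did not overlap. Both sums were higher in the libraries labelled FTO, the TIMP sum by the larger fold. On the log2 scale the shift of the ratio was -0.519. The direction depended on Timp1. Without Timp1 the ratio was 4.01, 3.39 and 3.24 in Vector and 3.88, 3.76 and 4.17 in the libraries labelled FTO, the groups overlapped, and the shift was 0.156, in the other direction.

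The make-up of both sums differed between the groups. Timp1 supplied 13% to 14.9% of the TIMP reads in Vector and 45.5% to 46.4% in the libraries labelled FTO, while Timp3 went from 12.5% to 14.6% down to 2.56% to 2.95%. Mmp2 supplied 65.1% to 65.4% of the MMP reads in Vector and 74.6% to 75.3% under FTO. The inducible Mmp3, Mmp9, Mmp10 and Mmp13 together supplied 0.0291% to 0.0493% in Vector and 1.56% to 2.98% in the libraries labelled FTO, so their large fold differences hardly enter the summed ratio.

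**Figure D2:**
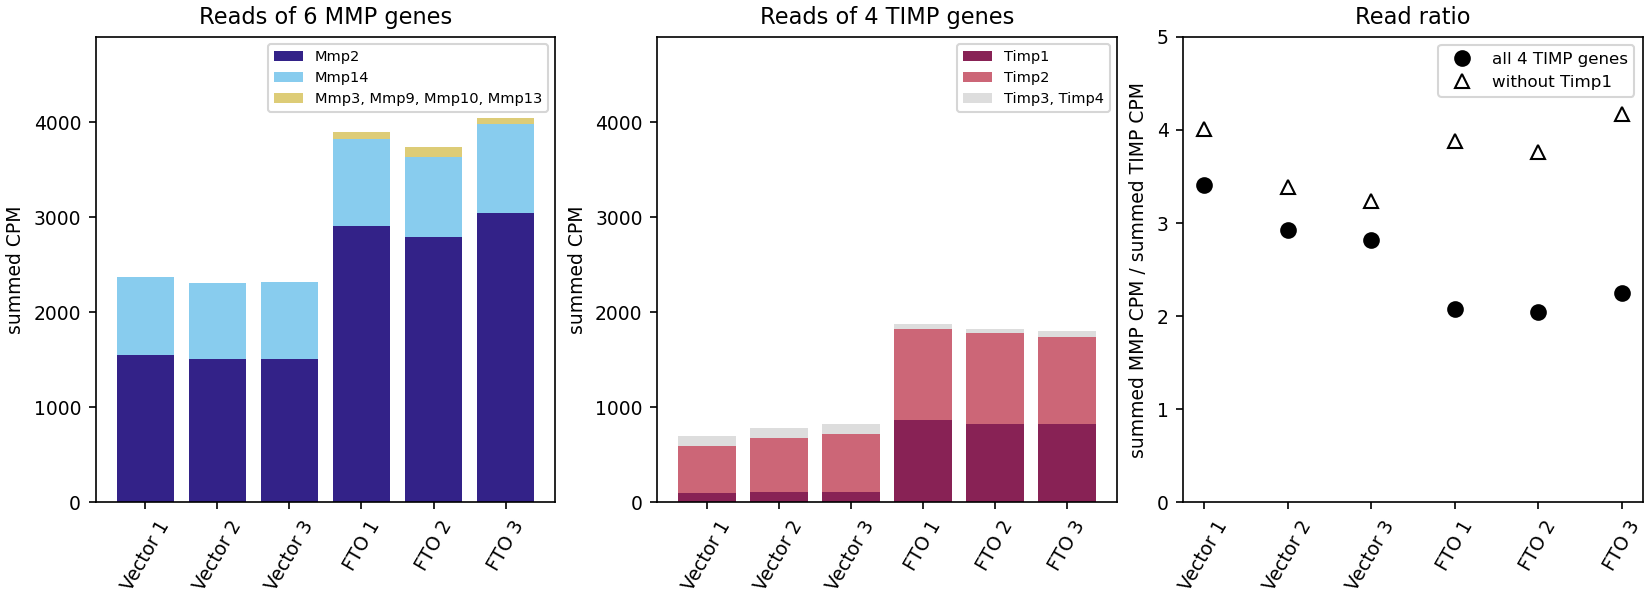
Summed CPM of the MMP genes (left) and TIMP genes (middle) as stacked bars from 0 for each library, and the ratio of the sums (right) with all 4 TIMP genes (filled circles) and without Timp1 (open triangles). The filled circles lie at 2.82 to 3.41 in Vector and 2.05 to 2.25 in the libraries labelled FTO, and the triangles of the groups overlap.

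A ratio of single genes does not depend on transcript length in its change between the groups, so all 24 MMP to TIMP ratios were compared. The MMP to TIMP ratio was higher in the libraries labelled FTO for 20 pairs and lower for 4. In 18 of the 20 and in 3 of the 4 the groups did not overlap. Among the 20, 8 are bounds (Mmp3 and Mmp10) and 4 rest on 2 Vector counts (Mmp13), so much of the tally comes from genes nearly absent in Vector. Timp4, at 5 to 16 counts per library, is the inhibitor in 6 pairs. Of these, 5 were higher and 1 was lower, and 4 had no overlap. For single genes, 70.3% of all tested showed no overlap. As the genes were chosen with these libraries known, nothing is read from the tally itself. The lower ones were Mmp14 to Timp1 (a change of -2.85 on the log2 scale), Mmp2 to Timp1 (-2.06), Mmp14 to Timp2 (-0.60) and Mmp14 to Timp4 (-0.11), the last with overlap. Thus the constitutive proteases Mmp2 and Mmp14 lost ground to Timp1, and each of the 6 proteases gained on Timp3, by 1.16 (Mmp14) to at least 7.68 (Mmp3). Mmp9 gained 2.80 on Timp1 and Mmp3 at least 3.67. Mmp2 to Timp2, the pair whose proteins meet on Mmp14, changed by 0.18 with an SD of 0.19 in Vector and 0.09 in the libraries labelled FTO, and the groups overlapped. Because the 24 ratios are made of 10 genes, they are not separate observations.

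**Figure D3:**
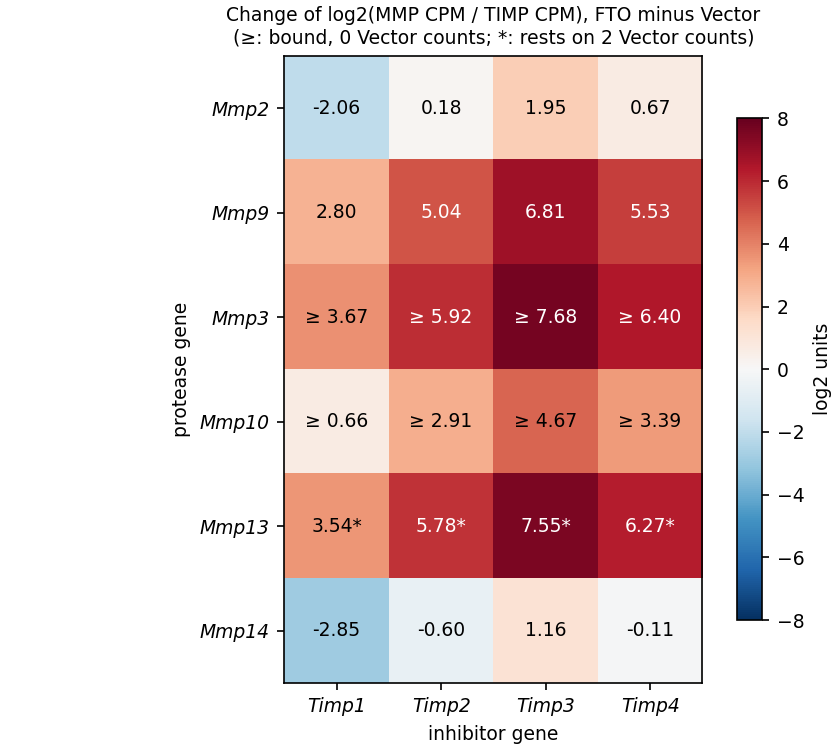
Change of the log2 ratio of each protease gene (rows) to each inhibitor gene (columns), FTO-labelled minus Vector, with red for a higher and blue for a lower ratio. The Timp3 column is red throughout, from 1.16 to at least 7.68, while Mmp2 and Mmp14 are blue against Timp1; the 8 bounds and the 4 values resting on 2 Vector counts are marked.

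The other MMP genes were compared by the edgeR quasi-likelihood test over all 12941 genes. This list and those that follow were chosen with earlier results of these data known. Of 16 listed, 2 were not among the symbols used here, 5 had too few counts and 9 were tested, of which 2 rose, 6 fell and 1 did not pass. Their median log2 fold change was -0.33. Over all genes tested, 65.9% passed, 33.2% as higher and 32.8% as lower. Mmp24 (which overlaps Mmp24os in RefSeq) and Mmp17, membrane-type MMPs, rose by 1.38 (SE 0.127, adjusted p-value 1.5e-07) and 1.22 (SE 0.121, adjusted p-value 3.7e-07). Mmp12, the macrophage elastase, fell from 168 ± 4.15 to 61.4 ± 9.03 CPM (log2 fold change -1.46, SE 0.0789, adjusted p-value 2.3e-10), beside the lower macrophage markers given above. Mmp15 fell by 1.39 (SE 0.226, adjusted p-value 6.8e-05). Mmp8, the neutrophil collagenase, had 31, 20 and 18 counts in Vector and 0, 2 and 0 under FTO, an adjusted p-value of 1.3e-05 and a pooled ratio 36.4-fold lower (95% counting interval 9.71 to 307), the 2 counts lying in replicate 2, without which that group was at 0. Mmp16, another membrane-type MMP, was at 29.3 ± 0.134 and 29.2 ± 2.22 CPM with an adjusted p-value of 0.96.

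Mmp3, Mmp10 and Mmp13 sit with 7 other MMP genes on rat chromosome 8, with no other protein-coding gene among the 10 in RefSeq. In order along the chromosome these are Mmp13, Mmp12, Mmp1b, Mmp3, Mmp1, Mmp10, Mmp8, Mmp27, Mmp20 and Mmp7. Mmp13, Mmp3 and Mmp10 were higher in the libraries labelled FTO, while Mmp12 and Mmp8, each next to a gene that was higher, fell, and so did Mmp7 (log2 fold change -1.22, SE 0.369, adjusted p-value 0.0089). Mmp1b, Mmp1, Mmp27 and Mmp20 had at most 1 count in any library. Genes of the cluster therefore differed in both directions.

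**Figure D4:**
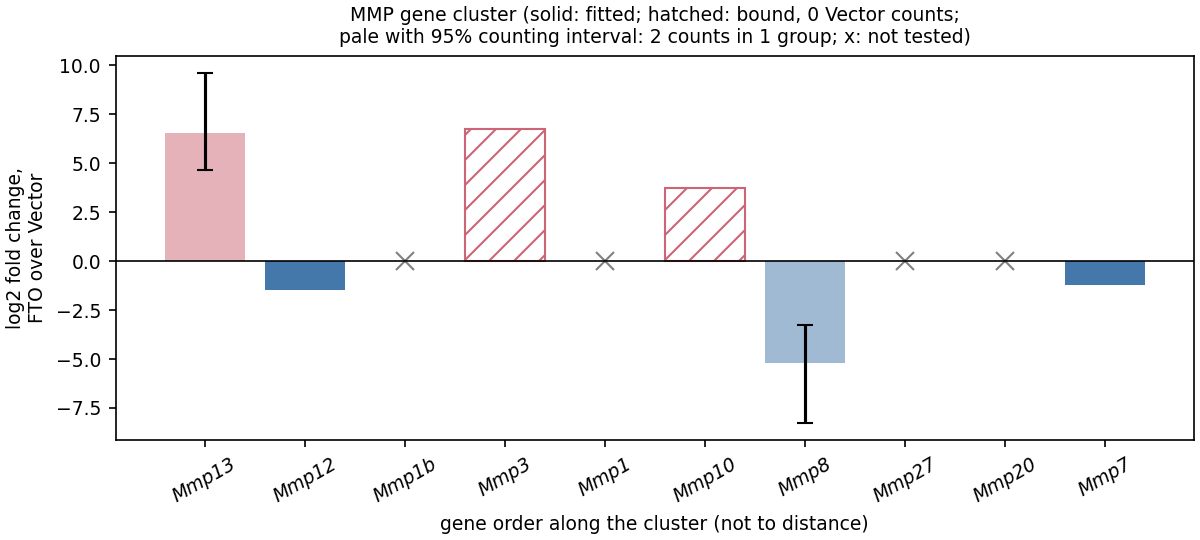
Log2 fold change (vertical axis, FTO-labelled over Vector) of the 10 MMP genes of the cluster in their order along the chromosome, with hatched bars for bounds, pale bars with 95% counting intervals where 1 group held 2 counts, and crosses for genes not tested. Bars above 0 (Mmp13, Mmp3, Mmp10) stand among bars below 0 (Mmp12, Mmp8, Mmp7).

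Genes that activate MMPs or hold them at the cell surface moved both ways. Of 13 tested, 6 rose, 5 fell and 2 did not pass, with a median log2 fold change of 0.10, beside 65.9% of all tested genes that passed. The convertase Pcsk5 rose from 15.5 ± 0.5 to 97.6 ± 11 CPM (2.66, SE 0.0850, adjusted p-value 3.5e-13), the heparanase Hpse rose by 2.86 (SE 0.141, adjusted p-value 7.7e-11) and Cd44, which docks Mmp9 and Mmp14, rose by 1.23 (SE 0.0478, adjusted p-value 4.2e-12). Plau (urokinase), which makes plasmin, fell from 82.0 ± 3.41 to 3.33 ± 0.918 CPM (-4.62, SE 0.110, adjusted p-value 1.0e-14). Plat, also a plasminogen activator, had more reads and rose from 266 ± 9.83 to 382 ± 5.68 CPM (0.52, SE 0.0416, adjusted p-value 2.6e-08). Itgb3, an integrin subunit, and the serine protease Prss23 fell by 1.96 and 1.67 (adjusted p-values 2.6e-12 and 2.8e-13). Furin, the convertase that activates Mmp14, was at 229 ± 6.37 and 245 ± 5.87 CPM with an adjusted p-value of 0.057.

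Of 11 tested genes listed with inhibitors other than TIMPs and clearance partners, 7 rose, 3 fell and 1 did not pass (median 0.68). The list is mixed and also holds genes such as Lcn2 and Sparc, so these counts do not measure MMP inhibition. The share of all tested genes that passed was 65.9%, with 33.2% higher and 32.8% lower. Reck, a membrane-anchored inhibitor of Mmp2, Mmp9 and Mmp14 that was named after its value was seen, rose from 81.3 ± 3.53 to 130 ± 3.81 CPM (0.68, SE 0.05, adjusted p-value 9.7e-09). Tfpi2, a Kunitz-type serine protease inhibitor of the matrix, rose by 4.27 (SE 0.111, adjusted p-value 3.0e-14). Lcn2, a lipocalin that binds Mmp9 and slows its breakdown, rose from 2.18 ± 0.750 to 3481 ± 335 CPM (10.63, SE 0.120, adjusted p-value 2.3e-18). The thrombospondins, which bind Mmp2 and lead it to uptake by Lrp1, diverged, as Thbs2 rose by 3.97 (adjusted p-value 2.2e-16) and Thbs1 fell by 1.72 (adjusted p-value 3.3e-13). Sparc, a collagen-binding matrix protein, fell by 0.34 (adjusted p-value 6.2e-07). Lrp1 was at 1635 ± 68 and 1637 ± 277 CPM with an adjusted p-value of 0.98.

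Because Timp3 also restrains ADAM sheddases, these and their rhomboid partners were examined. Of 10 tested, 6 rose, 3 fell and 1 did not pass (median 0.23), beside 65.9% of all tested genes that passed. Adam17, the TNF-α converting enzyme, rose from 114 ± 5.25 to 239 ± 3.45 CPM (1.06, SE 0.0456, adjusted p-value 1.3e-11), and Rhbdf2, which carries Adam17 to the cell surface, rose by 1.37 (SE 0.0653, adjusted p-value 5.0e-11). Adam15 rose by 0.58 (adjusted p-value 1.3e-07). Adam12, Adam33 and Adam19 fell by 1.29, 0.68 and 0.38 (adjusted p-values 1.1e-08, 6.8e-08 and 8.3e-07).

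All 16 transcription factors listed for MMP promoters passed the test, 10 as higher and 6 as lower, with a median of 0.59. Like the other lists, this one was chosen with earlier results known, and 65.9% of all tested genes passed, 33.2% as higher and 32.8% as lower. The 7 AP-1 genes were split, with 3 higher (Fosl1, Fosl2 and Junb) and 4 lower (Fos, Fosb, Jun and Jund). Junb, the AP-1 gene with the most reads, rose from 95.5 ± 8.09 to 163 ± 5.09 CPM (0.77, adjusted p-value 1.2e-08), and Fosl2 rose by 0.96 (adjusted p-value 5.7e-05). Fos fell from 18.3 ± 1.87 to 4.23 ± 0.202 CPM (-2.10, SE 0.124, adjusted p-value 7.0e-10) and Jun fell by 2.03 (SE 0.0687, adjusted p-value 7.4e-13), whereas Fosl1 rose by 1.51 (SE 0.116, adjusted p-value 1.8e-08). Fosb fell by 1.20 (adjusted p-value 0.013), with an adjusted p-value of 0.093 without Vector replicate 1. Relb, an NF-κB subunit, rose by 1.58 (SE 0.0765, adjusted p-value 6.0e-11), and Cebpb rose by 2.12 (SE 0.223, adjusted p-value 6.9e-07). Cebpb had 290 counts in Vector replicate 1, against 717 and 944 in replicates 2 and 3, and that library was also the lowest for Timp2.

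All 13 tested genes for cytokines known to induce MMPs and for their receptors passed, 10 as higher and 3 as lower (median 1.25), beside the same 65.9% of all tested genes. Il1b rose from 0.423 ± 0.333 to 36.6 ± 2.50 CPM (6.42, SE 0.214, adjusted p-value 6.0e-13) and Il6 from 2.01 ± 0.604 to 57.5 ± 5.54 CPM (4.84, SE 0.138, adjusted p-value 9.0e-14). Il1b had 10, 7 and 1 counts in Vector, and its log2 fold change was 7.02 without Vector replicate 1 and 5.92 without Vector replicate 3. Il1a had 0, 1 and 1 counts in Vector and 436, 396 and 523 in the libraries labelled FTO, a pooled ratio of 642 (95% counting interval 177 to 5305) with an adjusted p-value of 2.8e-14. Osm, Il1rap and Tgfb1 fell by 2.16, 0.62 and 0.49 (adjusted p-values 1.2e-04, 1.7e-06 and 5.9e-05). Tnf had 0 counts in each library.

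Of 14 matrix proteins that MMPs cut, 10 fell, 3 rose and 1 did not pass (median -0.91). This stands beside 65.9% of all tested genes that passed, 33.2% as higher and 32.8% as lower. Acan, Tnc and Eln fell by 7.60, 2.71 and 2.57 (adjusted p-values 9.1e-17, 1.5e-16 and 2.3e-15). Dcn, Vcan and Lamb1 rose by 6.90, 1.08 and 0.98 (adjusted p-values 1.2e-19, 1.0e-12 and 3.3e-11). Libraries in which the inducible protease genes were higher thus held fewer reads for most of these substrates, and whether one bears on the other was not tested.

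**Figure D5:**
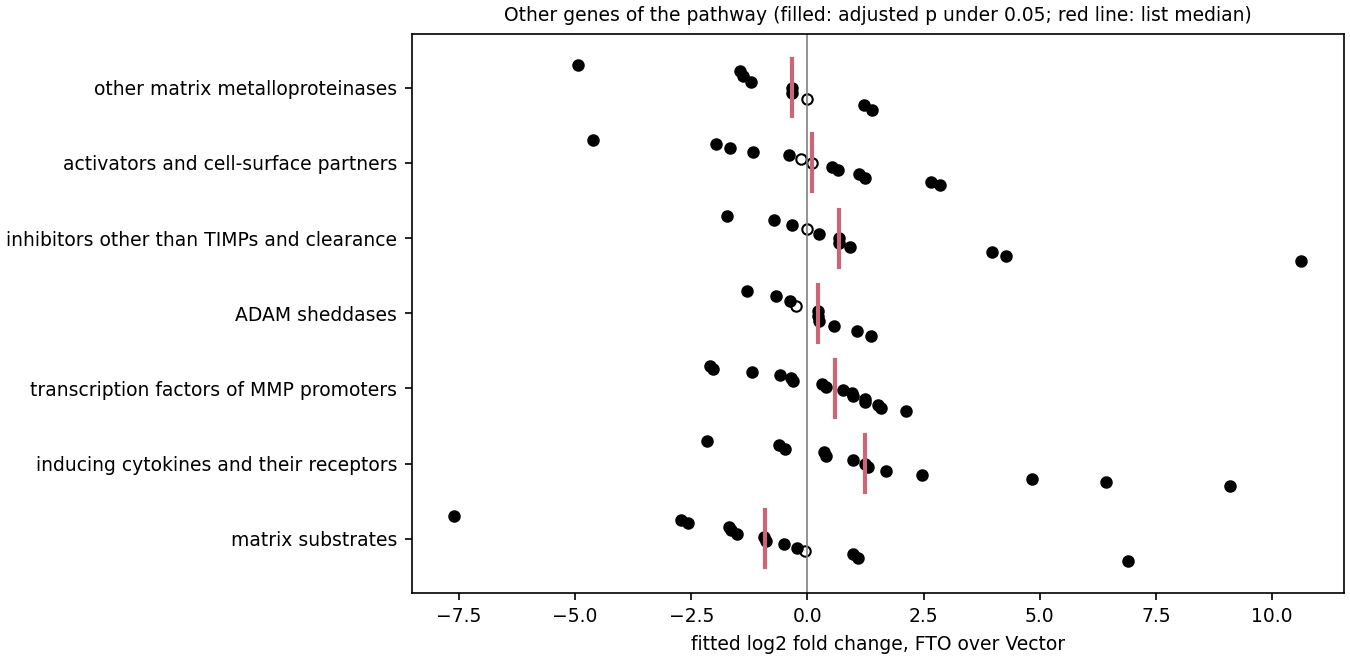
Fitted log2 fold change (horizontal axis, FTO-labelled over Vector) of each tested gene in the 7 lists, filled where the adjusted p-value was under 0.05, with the list median as a red line. Medians run from -0.91 for matrix substrates to 1.25 for cytokines and receptors, and each list holds genes on either side of 0.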

How the data were processed

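RNA of 6 NRCF samples was sequenced. For each library the authors deposited unnormalised read counts by gene symbol. The submitters' processing notes name Trimmomatic and rn6. The aligner, counter, annotation and use of strand are not given in the sources used here.

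Genes were kept with filterByExpr (minimum count 10), leaving 12941 genes with 99.9% of the counts of each library. The groups, taken from the genotype labels, were compared with the quasi-likelihood test of edgeR 4.0.16 in R 4.3.3 (TMM scaling, no covariate, two-sided, Benjamini-Hochberg adjustment over all genes tested). CPM are given as mean ± SD of 3 libraries, and the SE of a log2 fold change was derived from its F statistic. Where all libraries of a group had 0 counts, the fold was set against a floor of 3 counts per library (0.167 to 0.226 CPM). Within groups, counts differed by more than sampling noise (chi-square per degree of freedom 1.56 to 8.02). Members and lists were chosen with earlier results of these data known. From each list the text names up to 3 rising and 3 falling genes by fold change, among those past the threshold without overlap. Mmp7, Mmp16, Plat, Furin, Reck, Lrp1, Tnf, Junb and Fosl2 were added with their values in view. One gene that the rule names is not reported here. DESeq2 1.42.0, other scalings, other filters, a replicate block and leaving out libraries served as alternatives. The fit was tested on simulated data.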

Additional observations from a re-analysis of the deposited data

How the results depend on the processing

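The count of MMP and TIMP genes past the threshold was 9 under each of the 12 alternatives to the test, the scaling, the filter, the covariate and the libraries used, which is no sign of stability because they were chosen on these libraries. Mmp14 came nearest to the threshold, without FTO replicate 1 (log2 fold change 0.13). Of 612 values of 51 single genes 611 kept direction and side of the threshold. The exception was Fosb without Vector replicate 1. Between 7795 and 9009 genes passed an adjusted p-value of 0.05, and the number called in each of the 7 lists moved by at most 1. The replicate number did not pair the samples (correlation of deviations -0.0789 to 0.0346 for same-numbered libraries, -0.115 to 0.109 for others), and with the replicate block the count was 9 as well.

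The shift of the protease to inhibitor ratio was -0.519 on the log2 scale. It was 0.156 without Timp1, -0.283 without Mmp14, -0.981 without Mmp2, -0.686 without Timp3 and, in an alternative added after seeing the data, -1.36 without Timp2, each by construction a different sum. Leaving out single libraries gave -0.574 to -0.437. The ratio per transcript length was not run, as no transcript lengths were at hand. Depth limits Mmp3, Mmp10 and Mmp13, at 0 to 2 counts in Vector, and Timp4.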
